A study of Mus musculus with 4 samples.

Results

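GABAergic neurons are the inhibitory neurons of the brain, and a small group of genes marks them. The group examined here holds Gad1, Gad2, Slc32a1, Pvalb, Calb2, Lhx6, Dlx1 and Erbb4, and its members are the rows of the array table whose gene symbol equals one of these names. For 7 of the 8 genes there were rows, 8 transcript clusters in all out of 33793 on the array, because Slc32a1 had 2. No cluster value is given for Dlx1, whose array level is not analysed here. A transcript cluster is the set of probes that the array design gives to a transcribed locus, and its value is a normalized log2 signal, so that a difference of 1 is a 2-fold difference.

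Whole-brain RNA came from adult female mice of strain 129SV, 2 wild type and 2 Adar2-/- (Adar2 knockout), with 1 array per sample. Adarb1 encodes ADAR2, an enzyme that edits adenosine to inosine in double-stranded RNA. According to the methods of the study the mice of both genotypes were siblings homozygous for a pre-edited Gria2 allele (Gria2 R/R), which rescues Adar2-/- mice from early death, and the wild-type mice are therefore wild type at Adarb1 only. The knockout allele came through the germline, and whole brain mixes inhibitory neurons of all regions with excitatory neurons and glia.

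GABA is made from glutamate by 2 related decarboxylases, GAD67 from Gad1 and GAD65 from Gad2, and is loaded into synaptic vesicles by the transporter VGAT from Slc32a1. These 3 genes are used by nearly all GABAergic neurons. Parvalbumin (Pvalb) and calretinin (Calb2) are calcium-binding proteins that mark separate interneuron classes. Pvalb is known from fast-spiking interneurons and cerebellar Purkinje cells, and Calb2 from vertical interneurons of the cortex, from cerebellar granule cells and from many inhibitory cells of the olfactory bulb. Dlx1 and Lhx6 encode homeodomain transcription factors of interneuron development, and Erbb4 encodes the neuregulin receptor on interneurons.

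The promoter windows of 4 members are shown to let the sequence upstream of the 2 genes of GABA synthesis be compared with that of Pvalb and Lhx6. These 2 were the members with the largest difference in each direction among those with a window. The set of windows used here held none for Calb2, although the array table gives Calb2 a RefSeq transcript. Each window runs from 250 bases before to 50 bases after a start site in RefSeq (GRCm38.p6), is written 5′ to 3′ on the strand of the gene, and has each CG dinucleotide in capitals. The windows lie at chr2:70561879-70562178 (plus strand, Gad1), chr2:22622077-22622376 (plus strand, Gad2), chr15:78206351-78206650 (minus strand, Pvalb) and chr2:36105359-36105658 (minus strand, Lhx6).
Gad1: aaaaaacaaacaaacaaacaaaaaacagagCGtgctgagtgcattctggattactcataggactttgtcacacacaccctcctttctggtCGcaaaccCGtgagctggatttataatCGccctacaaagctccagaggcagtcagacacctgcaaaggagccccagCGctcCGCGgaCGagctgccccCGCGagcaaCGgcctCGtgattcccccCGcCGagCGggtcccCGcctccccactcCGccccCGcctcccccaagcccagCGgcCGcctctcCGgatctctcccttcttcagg
Gad2: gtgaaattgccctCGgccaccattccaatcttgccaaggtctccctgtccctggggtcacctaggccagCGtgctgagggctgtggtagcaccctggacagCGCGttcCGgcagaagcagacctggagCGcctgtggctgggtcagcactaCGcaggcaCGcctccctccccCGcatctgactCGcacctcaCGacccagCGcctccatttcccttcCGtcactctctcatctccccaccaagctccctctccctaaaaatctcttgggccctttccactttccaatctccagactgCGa
Pvalb: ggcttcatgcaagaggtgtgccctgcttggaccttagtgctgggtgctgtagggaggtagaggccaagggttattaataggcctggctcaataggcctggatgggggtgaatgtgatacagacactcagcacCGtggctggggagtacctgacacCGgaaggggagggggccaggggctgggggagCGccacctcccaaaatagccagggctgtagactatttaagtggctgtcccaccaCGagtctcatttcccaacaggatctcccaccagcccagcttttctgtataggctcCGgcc
Lhx6: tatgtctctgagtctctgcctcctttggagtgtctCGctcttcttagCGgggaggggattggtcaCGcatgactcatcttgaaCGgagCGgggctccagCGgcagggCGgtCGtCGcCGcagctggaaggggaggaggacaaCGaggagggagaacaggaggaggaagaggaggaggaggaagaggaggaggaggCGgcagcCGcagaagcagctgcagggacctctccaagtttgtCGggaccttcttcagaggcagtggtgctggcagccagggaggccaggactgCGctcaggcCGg

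The Pvalb window held 5 CG dinucleotides and the windows of Gad1, Gad2 and Lhx6 held 21, 14 and 16. The median over all 32851 windows of the same length was 7. Pvalb has a further start site in RefSeq, at position 78204237, whose window held 25. The start site of the printed Pvalb window, position 78206400, has the same coordinate as the 5′ end of the Pvalb cluster in the array table, which names no build. This also holds for Lhx6 at position 36105408. It does not hold for Gad1 (start site 70562129, cluster start 70553072) or Gad2 (start site 22622327, cluster start 22622205). Over the 10 windows in the set used here, which covers 7 of the 8 genes, the GC content ranged from 48.7% to 69.3%, against a median of 52.7% over all windows. The homeodomain core TAATTA, which reads the same on both strands, was in 0 of these 10 windows and in 5.29% of all windows. The TATA sequence TATAAA, searched on both strands, was in the Gad1 window and in 1 of the 3 Lhx6 windows, and in 13.6% of all windows. The E-box CAGCTG, also the same on both strands, was in the printed Lhx6 window and in 16.3% of all windows. The Pvalb and Gad2 windows held none of the 3 motifs, nor the cyclic AMP response core TGACGTCA, which 1.79% of all windows held. These matches describe the windows and were not related to the array values.

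The median signal of the 4 arrays lay between 6.03 and 6.09. Adarb1 was at 10.50 and 10.45 in wild type and at 9.16 and 8.96 in the knockout, lower on both arrays labelled knockout. Pan-neuronal markers, among them Snap25 and Rbfox3, lay between 7.93 and 13.16 on all arrays. The Y-linked genes, which female mice do not carry, lay between 3.49 and 4.40 and stand for the low end of the scale. The lowest signal of any member was 6.27. In 33793 clusters limma called 0 at an adjusted p below 0.05 (0.0%) and 2009 at an unadjusted p below 0.05 (5.95%), 3.64% higher and 2.31% lower in the knockout. Of the 8 member clusters 0 passed the adjusted p and 0 the unadjusted p. The same count was 1 with cyclic loess normalization, 1 with an intensity trend in eBayes and 1 without wild type replicate 2, and in each case this was Pvalb.

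The log2 differences of the 8 member clusters, of which 0 passed the unadjusted p, ran in both directions. Those of Gad1, Gad2, Erbb4 and the cluster on the strand of Slc32a1 were at most 0.06 in size. The estimates were 0.28 for Pvalb and 0.22 for the minus-strand cluster of Slc32a1, and -0.30 for Calb2 and -0.23 for Lhx6. The median difference was 0.01 over all clusters and -0.025 over those brighter than the median signal, as all members are. The median over the 8 member clusters was -0.03, with 3 clusters above and 5 below 0. Its sign was not fixed, at 0.0125 without Adar2 knockout replicate 1, 0.0088 after quantile and 0.0176 after cyclic loess normalization, and -0.0675 after median centring. The groups did not overlap in 3 of the 8 clusters, 1 higher (Pvalb) and 2 lower (Calb2 and Lhx6). Over all clusters the groups did not overlap in 34.1%, 17.7% higher and 16.5% lower, so the share of members is near that of the array. An exact two-sided permutation of 2 arrays against 2 has 0.333 as its smallest p, and each of these 3 clusters has that value. In bulk tissue, fewer cells of a type and less RNA per cell cannot be told apart.

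**Figure D1:**
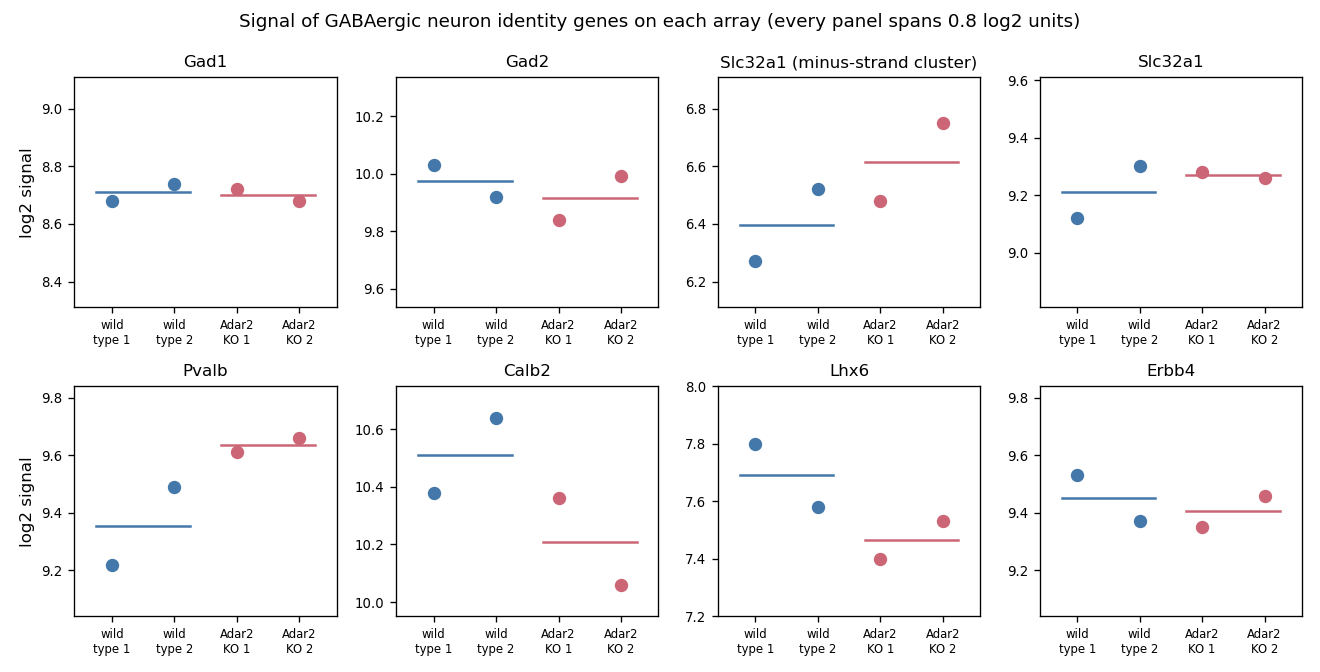
Log2 signal (y axis) of the 8 member clusters on each of the 4 arrays (x axis; blue, wild type; red, Adar2 knockout (KO)); points are single arrays and lines are group means. Each panel spans the same 0.8 log2 units, so that the 4 close points of Gad1 (8.68 to 8.74) can be set against the spread of Calb2 (10.06 to 10.64).

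The genes of GABA synthesis had small differences between genotypes. Gad1 (chromosome 2, 70553072 to 70602014, plus strand; coordinates are those of the array table, which names no build) was at 8.68 and 8.74 in wild-type replicates 1 and 2 and at 8.72 and 8.68 in Adar2 knockout replicates 1 and 2. Both knockout values lay within the range of the wild-type pair. The difference was -0.01 (SE 0.10, unadjusted limma p 0.926, adjusted p 0.992). Its 95% interval, from -0.26 to 0.24, corresponds to 0.833 to 1.18 times the wild-type level, which is the range of change that these arrays leave for Gad1. Its sign was not fixed, at 0.04 after quantile normalization and 0.03 after cyclic loess.

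Gad2 (chromosome 2, 22622205 to 22693877, plus strand) was at 10.03 and 9.92 in wild type and at 9.84 and 9.99 in the knockout. The groups overlapped, and the gap of 0.15 between the knockout arrays was larger than the difference of -0.06 between genotypes (SE 0.12, adjusted limma p 0.962). The 95% interval ran from 0.788 to 1.17 times the wild-type level.

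Slc32a1, which fills vesicles with GABA, was measured by a cluster on its own strand (chromosome 2, 158610758 to 158615748, plus strand). It was at 9.12 and 9.30 in wild type and at 9.28 and 9.26 in the knockout. Wild-type replicate 1 was the lowest array and the other 3 lay within 0.04. The difference was 0.06 (SE 0.11, adjusted limma p 0.962), with an interval from 0.858 to 1.27 times the wild-type level.

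A further cluster carried the symbol Slc32a1 but lies on the opposite strand (chromosome 2, 158610910 to 158611820, minus strand), inside the span of the gene. It was at 6.27 and 6.52 in wild type and at 6.48 and 6.75 in the knockout. Its difference of 0.22 (SE 0.15, adjusted limma p 0.867) was smaller than the gaps of 0.25 and 0.27 within the genotypes. With 1 array left out it ranged from 0.085 (knockout replicate 2) and 0.095 (wild-type replicate 1) to 0.345 (wild-type replicate 2) and 0.355 (knockout replicate 1). What this cluster detects is not settled by the table, and without it the median of the members was -0.05 in place of -0.03.

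Erbb4 (chromosome 1, 68032186 to 69108059, minus strand) was at 9.53 and 9.37 in wild type and at 9.35 and 9.46 in the knockout. The groups overlapped, with a difference of -0.05 (SE 0.12, adjusted limma p 0.976) and an interval from 0.795 to 1.18 times the wild-type level. For these 4 genes the data bound the change in whole brain to about the intervals given, and they do not show that the levels were equal.

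**Figure D2:**
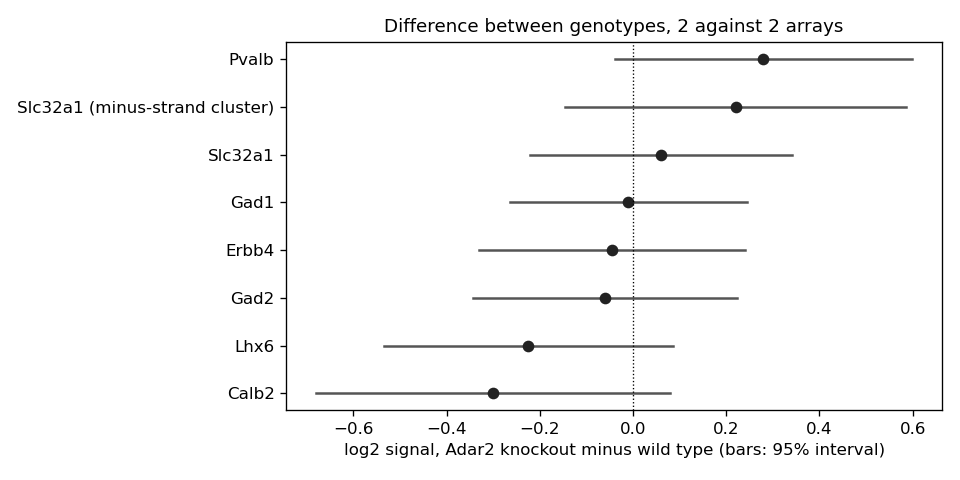
Difference in log2 signal between Adar2 knockout and wild type (x axis) for the 8 member clusters (y axis), from limma on 2 against 2 arrays, with 95% intervals as bars. All 8 intervals include 0, and the estimates run from -0.30 for Calb2 to 0.28 for Pvalb.

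Pvalb (chromosome 15, 78191114 to 78206400, minus strand) was at 9.22 and 9.49 in wild type and at 9.61 and 9.66 in the knockout. Both knockout arrays were above both wild-type arrays, and wild-type replicate 1 stood lowest. The difference of 0.28 (SE 0.13, unadjusted limma p 0.0748, adjusted p 0.835) is 1.21-fold, with an interval from 0.974 to 1.51-fold. It exceeded the gap between the wild-type arrays, 0.27, by little. Without wild type replicate 1 the difference was 0.145 (unadjusted p 0.254), and without wild type replicate 2 it was 0.415 (unadjusted p 0.031), so its size turned on which wild-type array was used.

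A difference in one direction was not seen over the other genes of fast-spiking interneurons. Of 16 clusters for such genes 0 had an unadjusted limma p below 0.05, 7 were above and 9 below 0, and the median was -0.01. Kcnc1, a potassium channel that lets these cells fire fast, was at 10.14 and 10.16 in wild type and at 10.19 and 10.15 in the knockout. Syt2, a synaptotagmin of their terminals, was at 9.77 and 9.75 in wild type and at 9.79 and 9.72 in the knockout. The extremes were Pthlh, a secreted peptide, at 0.24, and Nxph1, a neurexin ligand, at -0.24, both with an unadjusted p above the threshold (0.0798 and 0.171). The mean log2 signal of the list was 8.83 and 8.82 in wild type and 8.80 and 8.82 in the knockout. For the markers of Purkinje cells, the other main source of Pvalb in brain, it was 9.49 and 9.52 in wild type and 9.45 and 9.53 in the knockout over 10 clusters, of which 7 were above and 3 below 0 with a median of 0.03 and 0 had an unadjusted limma p below 0.05. With 1 array left out that median ranged from -0.02 to 0.055.

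Lhx6 (chromosome 2, 36081950 to 36105408, minus strand) was at 7.80 and 7.58 in wild type and at 7.40 and 7.53 in the knockout. Both knockout arrays lay lower than the wild-type arrays, but only by 0.05 between the nearest of them. The difference of -0.23 (SE 0.13, unadjusted limma p 0.125, adjusted p 0.849) is 0.856 times the wild-type level, with an interval from 0.69 to 1.06. It ranged from -0.34 to -0.12 over 13 alternative settings. Several lists of cell type markers also had most of their differences below 0, where the median over all clusters brighter than the array-wide median was -0.025. For glutamatergic neurons this held for 10 of 12 clusters, with a median of -0.19 and a mean signal of 9.26 and 9.20 in wild type and 9.05 and 9.09 in the knockout. Those with an unadjusted p below 0.05 were Neurod6 (-0.36, p 0.0462) and Fezf2 (-0.38, p 0.0127), both transcription factors of cortical excitatory neurons, beside 2.31% of all clusters lower at this p. That count fell to 0 when either wild type replicate 1 (median then -0.12) or Adar2 knockout replicate 2 was left out, and it was 1 with quantile or cyclic loess normalization, with the replicate block and without Adar2 knockout replicate 1. Differences below 0 were also found in 10 of 12 clusters for striatal projection neurons (median -0.125), 6 of 8 for astrocytes (median -0.12), 7 of 9 for oligodendrocytes (median -0.025) and 7 of 8 for microglia (median -0.09), and in 4 of 9 for pan-neuronal genes (median 0.035) and 3 of 8 for endothelial cells (median 0.015). With 1 array left out the median kept its sign for striatal neurons (-0.16 to -0.095) and astrocytes (-0.155 to -0.0875). It changed sign for oligodendrocytes (-0.105 without wild type replicate 1 and 0.055 when the other wild-type array was left out), microglia (-0.205 and 0.015 in the same order), pan-neuronal genes (lowest -0.03, without wild type replicate 1) and endothelial cells (-0.1225 without wild type replicate 2). Single markers of these lists with an unadjusted limma p below 0.05 were Drd1 (striatal, -0.32, p 0.0325), Gja1 (astrocytes, -0.27, p 0.0473), Mog (oligodendrocytes, -0.35, p 0.0258) and Olig2 (oligodendrocytes, -0.27, p 0.0477). With the replicate block, and with wild-type replicate 1 or 2 left out, 0 clusters of these 3 lists had an unadjusted p below 0.05, and the striatal count was 0 with either knockout array left out too. The part of tissue composition in the Lhx6 difference was not tested.

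Calb2 (chromosome 8, 110137502 to 110168210, minus strand) was at 10.38 and 10.64 in wild type and at 10.36 and 10.06 in the knockout. Knockout replicate 2 was the lowest array, whereas knockout replicate 1 and wild-type replicate 1 differed by 0.02. The difference of -0.30 (SE 0.15, unadjusted limma p 0.101, adjusted p 0.843) is 0.812 times the wild-type level, with an interval from 0.624 to 1.06, and it equals the gap of 0.30 between the knockout arrays. Without Adar2 knockout replicate 2 it was -0.15 (unadjusted p 0.436), and without Adar2 knockout replicate 1 it was -0.45 (unadjusted p 0.0776). Without wild type replicates 1 and 2 it was -0.43 and -0.17.

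Most markers of the olfactory bulb were, like Calb2, lowest in Adar2 knockout replicate 2. Of 11 clusters of the bulb list 9 had their lowest signal there, where 25.9% of all clusters had theirs. The list was chosen with earlier results of these data known, so this count is a description only. The mean signal of the list was 7.50 and 7.67 in wild type and 7.59 and 7.16 in the knockout. Cdhr1, a cadherin of bulb projection neurons, was at 7.80 and 7.87 in wild type and at 7.44 and 6.66 in the knockout. Doc2g, a further gene of these neurons, was at 7.74 and 7.92 in wild type and at 7.75 and 6.70 in the knockout. These 2 had the lowest differences of the list, in which 3 clusters were above and 8 below 0. Eomes and Tbx21, transcription factors of the same neurons, had differences of 0.09 and 0.085 but were also lowest in knockout replicate 2, at 6.91 and 6.53. No marker of the list was at the level of the Y-linked genes, its lowest signal being 5.57. Unadjusted limma p was below 0.05 for Cdhr1, lower (0.0214), and for Lbhd2, higher (0.0332), beside 5.95% of all clusters in either direction. The count of 2 was 0 with the replicate block and 0 without wild type replicate 1, and it was 1 without wild type replicate 2 and 1 without Adar2 knockout replicate 2. The median of the list was -0.165. It was -0.025 without Adar2 knockout replicate 2, -0.315 without Adar2 knockout replicate 1 (with 3 clusters called) and -0.28 without wild type replicate 1. Lbhd2 was lowest in wild-type replicate 1 and Slc6a3 in knockout replicate 1, and Sp8 stands both in this list and among the transcription factors described next. Markers of cerebellar granule cells, a further source of Calb2, had 10 clusters for 8 genes, with 8 of 10 differences below 0. Without overlap 6 of 10 clusters were lower, beside 16.5% of all clusters. These 6 include both clusters of Neurod1, which lie on opposite strands, and a cluster with the symbol Etv1 on chromosome 13 (8 probes, -0.14). The Etv1 cluster on chromosome 12 differed by 0.04. The median of the granule cell list was -0.115, with 0 clusters at an unadjusted limma p below 0.05. The mean signal of this list was 9.43 and 9.48 in wild type and 9.31 and 9.39 in the knockout, lowest in Adar2 knockout replicate 1. The part of bulb or cerebellar tissue in the difference of Calb2 was not tested.

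**Figure D3:**
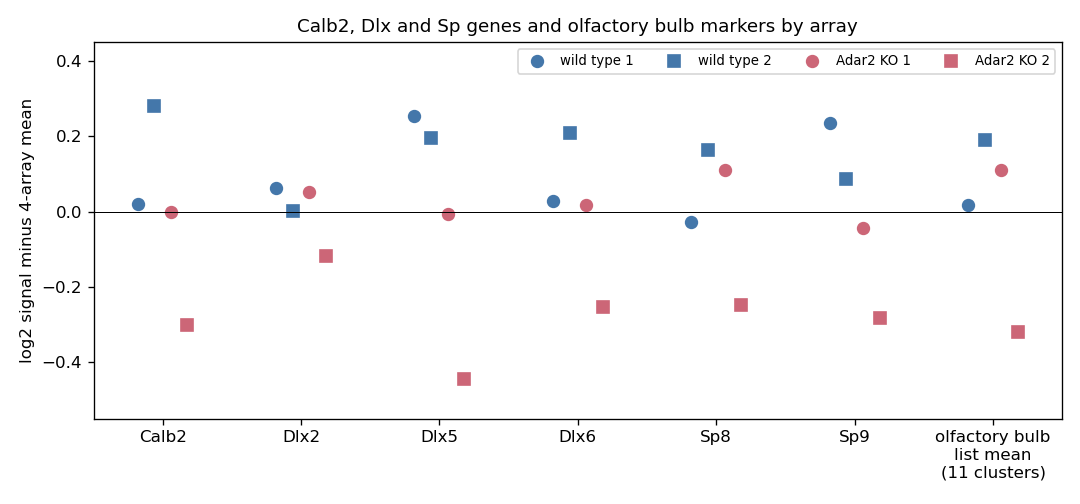
Log2 signal minus the mean of the 4 arrays (y axis) for Calb2, 5 transcription factor genes and the mean of the 11 olfactory bulb clusters (x axis); blue symbols are wild type and red symbols Adar2 knockout (KO), with circles for replicate 1 and squares for replicate 2. The 5 factor genes were chosen for being lowest in Adar2 knockout replicate 2, as 10 of 24 factor clusters were, and this array lies at -0.30 for Calb2 and -0.32 for the bulb mean.

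Transcription factors of GABAergic lineages, the group to which Dlx1 and Lhx6 belong, had 24 clusters for 21 genes. Of these 0 were higher and 3 lower at an unadjusted limma p below 0.05, beside 3.64% and 2.31% of all clusters, and 0 passed the adjusted p. The median was -0.09, with 8 above and 16 below 0, and it was -0.025 without wild type replicate 1. Dlx5 was at 8.43 and 8.37 in wild type and at 8.17 and 7.73 in the knockout (difference -0.45, unadjusted p 0.0355). Prox1, which is known from granule cells of the dentate gyrus and from interneurons of caudal origin, was at 7.99 and 7.95 in wild type and at 7.52 and 7.66 in the knockout (difference -0.38, unadjusted p 0.0141). Sp9 was at 6.60 and 6.45 in wild type and at 6.32 and 6.08 in the knockout (difference -0.33, unadjusted p 0.0487).

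Dlx2, Dlx5, Dlx6, Sp8 and Sp9 are named together because each had its lowest signal in Adar2 knockout replicate 2, as Calb2 and the bulb list did. Over the transcription factors this array was the lowest in 10 of 24 clusters, beside 25.9% of all clusters, and Prox1 was lowest in knockout replicate 1. Without knockout replicate 2, Dlx5 differed by -0.23 (unadjusted p 0.116), Sp9 by -0.21 (unadjusted p 0.204) and Prox1 by -0.45 (unadjusted p 0.0231). Without wild type replicate 1 the unadjusted p was 0.201 for Dlx5, 0.223 for Sp9 and 0.0672 for Prox1, and without wild type replicate 2 it was 0.16, 0.0948 and 0.053 in the same order. Without Adar2 knockout replicate 1, Dlx5 differed by -0.67 (unadjusted p 0.00868), Sp9 by -0.445 (unadjusted p 0.0411) and Prox1 by -0.31 (unadjusted p 0.0575). Without variance shrinkage the unadjusted p was 0.18 for Dlx5 and 0.148 for Sp9, and with the intensity trend it was 0.0508 for Sp9. At the Dlx1 locus, 2 clusters carried the symbol of its antisense RNA, Dlx1as. The one on the minus strand (chromosome 2, 71514344 to 71537891) was at 6.41 and 6.42 in wild type and at 6.34 and 6.29 in the knockout. The one on the plus strand (chromosome 2, 71528113 to 71533980), the strand RefSeq gives for Dlx1, was at 6.93 and 7.17 in wild type and at 6.92 and 6.70 in the knockout, likewise lowest in knockout replicate 2 (difference -0.24, unadjusted p 0.137). Which transcript the plus-strand cluster detects is not settled by the table, and it was not counted as a member.

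Markers of interneuron classes other than the members had 20 clusters for 20 genes. Of these 0 were higher and 3 lower at an unadjusted limma p below 0.05, beside 3.64% and 2.31% of all clusters, and the median was -0.03, with 8 above and 12 below 0. Lamp5, a marker of neurogliaform cells that is also found in excitatory neurons, was at 10.62 and 10.61 in wild type and at 10.32 and 10.34 in the knockout. Its difference of -0.29 (unadjusted p 0.0315) was large against gaps of 0.01 and 0.02 within the genotypes. The Lamp5 difference ranged from -0.295 to -0.275 with 1 array left out. Crhbp, which binds corticotropin-releasing hormone and marks a part of the somatostatin cells, was at 8.30 and 8.46 in wild type and at 8.09 and 8.06 in the knockout (difference -0.31, unadjusted p 0.0352). Rbp4, a retinol carrier, differed by -0.28 (unadjusted p 0.0434). Sst, the peptide of the largest class beside the Pvalb cells, was at 12.03 and 11.96 in wild type and at 11.89 and 11.95 in the knockout, and Vip at 7.80 and 8.11 in wild type and at 8.05 and 8.10 in the knockout. The Vip values overlapped, and the Sst values were lower in the knockout by 0.01 between the nearest arrays (difference -0.075, unadjusted p 0.50). Lamp5 and Rbp4 lost their unadjusted p below 0.05 whichever of the 4 arrays was left out, and Crhbp kept it only without wild type replicate 1 (0.0353). Crhbp also lost it with the replicate block (0.0551) and without variance shrinkage (0.0644). The adjusted limma p of all 3 was 0.834. With quantile or cyclic loess normalization 0 clusters of the list had an unadjusted p below 0.05.

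The genes that handle GABA after its synthesis had a median difference near 0. Of 14 clusters for GABA transporters, GABA breakdown and glutamine supply 0 had an unadjusted limma p below 0.05, and the median was -0.01, with 7 above and 7 below 0. Abat, the transaminase that degrades GABA, was at 10.71 and 10.83 in wild type and at 10.80 on both knockout arrays. The extremes were Slc38a3, a glutamine transporter, at -0.11, and a cluster of Glul on the opposite strand of that gene at 0.39 (unadjusted p 0.0525), which the table marks as able to cross-hybridize. The count was 1 with quantile or cyclic loess normalization, with the replicate block and over bright clusters alone. The main cluster of Glul, glutamine synthetase, differed by -0.04. Among 9 clusters for organizers of inhibitory synapses 0 had an unadjusted p below 0.05, and the median was -0.05. The differences ran from -0.14 for Slitrk3, an adhesion protein, to 0.08 for Nlgn2, the neuroligin of inhibitory synapses. Gphn, the scaffold gephyrin, was at 9.92 and 9.88 in wild type and at 9.89 and 9.98 in the knockout.

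Ligands and partners of Erbb4 had 11 clusters for 10 genes, with 2 higher and 0 lower at an unadjusted limma p below 0.05, beside 3.64% and 2.31% of all clusters, and a median of 0.05. The neuregulins Nrg1 and Nrg3, the ligands best known in brain, were at 8.37 and 8.29 (Nrg1) and at 9.18 and 9.10 (Nrg3) in wild type, and at 8.18 and 8.39 (Nrg1) and at 9.02 and 9.20 (Nrg3) in the knockout. Both overlapped between genotypes. The receptors Erbb2 and Erbb3 differed by -0.06 and -0.07. The 2 higher clusters were Btc, betacellulin, at 5.37 and 5.40 in wild type and 5.76 and 5.79 in the knockout (difference 0.39, unadjusted p 0.00915), and Ereg, epiregulin, at 5.75 and 5.81 in wild type and 6.23 and 6.05 in the knockout (difference 0.36, unadjusted p 0.0214). Without one array at a time, Btc kept an unadjusted p between 0.0295 and 0.0376, and Ereg was below 0.05 in 1 of the 4 cases and at 0.063 without variance shrinkage. Both genes had signals below or near the array medians, so 0 clusters of the list passed when dim clusters were left out, and a cluster of Ereg on the opposite strand differed by -0.20. Over the dimmer part of all clusters, those at or below the median signal, the median difference was 0.045, and over the brighter part it was -0.025.

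**Figure D4:**
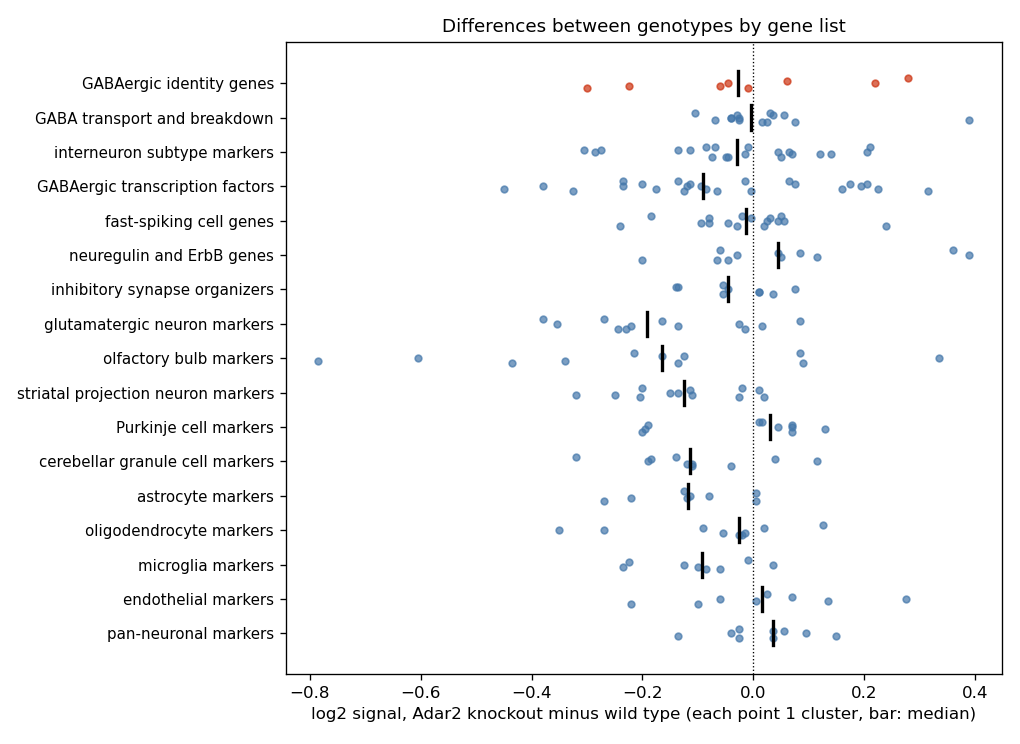
Difference in log2 signal between Adar2 knockout and wild type (x axis) for each cluster (points) of the GABAergic identity genes (red) and of the other lists (blue), with the median of each list as a black bar. The identity genes run from -0.30 to 0.28 around a median of -0.03, and in the fit shown the glutamatergic list has the lowest median, -0.19. After quantile normalization the olfactory bulb list had a lower median (-0.185) than the glutamatergic list (-0.175).

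The 4 arrays give each cluster a profile, and the profiles closest to those of the members were looked for among 26680 other clusters with a symbol. Only members that spanned at least 0.3 over the arrays were used, and likeness was the root mean square difference of the deviations from the 4-array mean. For Pvalb the closest were Prss22 (0.005), Il17re (0.0071) and Mir501 (0.013). For Lhx6 they were Rragc (0.0043), Tmed10 (0.0083) and Fcrla (0.011), and for Calb2 Rnf5 (0.02), Olfr74 (0.022) and Slc30a6 (0.022). For the minus-strand cluster of Slc32a1 they were Cd163l1 (0.0083), Gja4 (0.0087) and Arhgef10 (0.01). None of these genes belongs to the GABAergic lists. They are given as a description over 4 arrays.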

How the data were processed

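Affymetrix whole-transcript arrays measured total RNA from whole brain, 2 arrays for wild type and 2 for the knockout. The deposited log2 signals are the authors' normalized values, to 2 decimals; the submitters' processing notes name Affymetrix Expression Console and RMA without versions, and the genome build is not given in the sources used here. The table also holds the authors' group means, log2 ratios, fold changes and p-values, which were not used. The array gives no read depth, and the number of arrays limits the precision. The methods of the study describe RNA from 2 mice of each genotype, and p-values rest on the spread between these 4 arrays.

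The genotypes were compared by two-sided tests in limma 3.58.1 under R 4.3.3 (linear fit on genotype alone, then eBayes, 5.79 degrees of freedom), with Benjamini-Hochberg adjustment over all 33793 clusters and no filter. Intervals are 95% intervals of that fit. The calculation was tested on simulated data. Lists were described by counts and medians, with older symbols matched through RefSeq synonyms. Summaries used pandas 2.3.3 under Python 3.11.15, and matplotlib 3.10.9 drew the plots.

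The members and the lists were chosen with earlier results of these data known. Named beside the members were, from each GABAergic list, genes with an unadjusted p below 0.05 or else the highest and lowest difference, defining markers, and the 3 closest profiles of members spanning at least 0.3. Other list genes (Kcnc1, Syt2, Dlx2, Dlx6, Sp8, Sst, Vip, Abat, Glul, Gphn, Nrg1, Nrg3, Erbb2 and Erbb3) and Dlx1as were added after their values were seen. The fit was repeated after quantile, cyclic loess or median scaling of the arrays, on bright clusters alone, with the replicate number as a block, with each array left out, with trended, robust or no shrinkage, and without the clusters marked for cross-hybridization. Leaving out the minus-strand Slc32a1 cluster was chosen after seeing the data.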

Additional observations from a re-analysis of the deposited data

How the results depend on the processing

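Over 13 alternatives for each of the 8 member clusters, 92 of 104 values kept their direction and their side of an unadjusted p of 0.05, 9 reversed and 3 passed it. Bright clusters alone, the replicate block, each form of shrinkage and leaving out cross-hybridizing clusters leave a difference as it was. In those settings the direction could not change, so the 92 overstates how stable the directions are. The reversals were in members close to 0. Gad1 was 0.036 with quantile and 0.033 with cyclic loess normalization, and Erbb4 was 0.003 with cyclic loess. With each array left out in turn, Gad1 ranged from -0.04 to 0.02 (0.01 without knockout replicate 2), Gad2 from -0.135 to 0.015, Slc32a1 from -0.03 to 0.15 and Erbb4 from -0.125 to 0.035 (0.01 without knockout replicate 1). The count of members with an unadjusted p below 0.05 was 1 with cyclic loess normalization and 1 with the intensity trend, and 0 to 1 with an array left out. The median of the GABA transport and breakdown list was -0.045 after median centring, 0.0131 after quantile and 0.0226 after cyclic loess normalization, -0.025 without clusters that can cross-hybridize and -0.04 to 0.0275 with an array left out, and its count was 1 with quantile, 1 with cyclic loess and 1 over bright clusters. With an array left out, the count ranged from 0 to 1 for interneuron markers, from 0 to 2 for transcription factors and from 1 to 2 for neuregulin and ErbB genes. It was 0 for interneuron markers after quantile or cyclic loess normalization, and 0 for neuregulin and ErbB genes over bright clusters. The median of the neuregulin and ErbB list ranged from -0.055 to 0.06 with an array left out. The median with an array left out ranged from -0.0725 to -0.01 for interneuron markers and from -0.0425 to 0.0175 for fast-spiking genes. After median centring, quantile and cyclic loess normalization the interneuron median was -0.07, -0.0044 and -0.0022. The fast-spiking median was -0.0525, 0.02 and 0.0369 in the same order. The median of the synapse organizers ranged from -0.07 to 0.02 with an array left out. It was -0.085 after median centring, 0.0 after quantile and 0.0047 after cyclic loess normalization. For each of these the cause was not tested. Leaving out the minus-strand Slc32a1 cluster, chosen after seeing the data, gave a member median of -0.045.

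Arrays that share a replicate number were not treated as pairs: their deviations from the genotype means correlated at 0.0504 across clusters, which are not independent. With the replicate block, 0 members had an unadjusted p below 0.05, and the count was 1 for GABA transport and breakdown, 2 for interneuron markers (Crhbp lost its call), 1 for glutamatergic markers and 0 for olfactory bulb, striatal, astrocyte and oligodendrocyte markers. No outlier test was possible with 2 arrays a group, and the intervals of the members show the precision that 2 arrays a group give.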
